A study of Mus musculus with 10 samples.

Results

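The regions described here are 919 of the 122984 accessible chromatin peaks measured in adipocytes of the mouse MAP line (0.747%), namely those that were less accessible at every forskolin time and not after rosiglitazone. They were chosen from levels in CPM, a peak's count divided by its library's total count in peaks and scaled to the same total in every library. The control mean had to be at least 2 CPM, and the mean after 4 hours, 1 day and 3 days of forskolin at most 0.6 times the control mean. All 6 forskolin libraries had to lie below both control libraries, and the rosiglitazone mean above 0.8 times the control mean, with 0.25 CPM added before each ratio. The low levels with forskolin and the kept levels with rosiglitazone are therefore what chose the peaks, and they are given below as a description. Of all peaks, 55685 met the control and rosiglitazone floors and could have been chosen, and the 919 persistently closed peaks were 1.65% of these.

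MAP cells are an immortalized line of mouse adipocyte progenitors. Every group, Control included, was differentiated with insulin, isobutylmethylxanthine (a phosphodiesterase inhibitor, which raises cAMP), dexamethasone and rosiglitazone, and then with insulin and rosiglitazone. The fully differentiated cells were left as Control or received forskolin for 4 hours (FSK4h), 1 day (FSK1D) or 3 days (FSK3D), or rosiglitazone for 3 days (Rosi3D), and each of the 5 groups has 2 libraries. ATAC-seq, in which a transposase inserts sequencing adapters into open DNA, was run on sorted nuclei of these cells. The labels name the cells progenitors, while the treatment text speaks of differentiated adipocytes. All 22 genes of an adipocyte list, which holds Pparg, Adipoq and Fabp4, had peaks, and 143 of their 232 peaks met the control and rosiglitazone floors. Of 10 macrophage and immune genes, 8 had peaks, and 9 of their 29 peaks met those floors. Total counts ran from 10410233 to 18935287 per library, and the Control libraries S1 (10410233) and S2 (13055443) were among the 3 shallowest. The labels do not say if replicate libraries are separate cultures, so p-values cover only the spread between these libraries.

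Forskolin activates adenylyl cyclase, and the cAMP it raises switches on protein kinase A, the route by which adrenergic signals drive lipolysis and thermogenesis in fat cells. Rosiglitazone binds PPARγ, the nuclear receptor that holds the adipocyte programme in place. Regulatory DNA that is bound by transcription factors is cut more readily by the transposase, and a peak that loses signal is commonly called closed. In a bulk sample, fewer cells with an open site and less opening per cell cannot be told apart.

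Most of these peaks lay far from genes' start sites, but 20 of them overlapped a promoter window in RefSeq's GRCm38.p6 table (250 bases before to 50 after a start). The part of the window covered by the peak is shown for 7 of them, since these are the closed peaks whose DNA is at hand. Shown are the matrix genes Dpt (dermatopontin), Omd (osteomodulin) and Ogn (mimecan), the transporter gene Abca9, Tmem182, Gpsm1, whose protein binds Gi alpha subunits, and Pafah2, a platelet-activating factor acetylhydrolase. The choice of these 7 was made with their values known. Each is written 5′ to 3′ on the gene's strand, and capitals mark a C/EBP match (TTGCNNAA), an NFI core (TTGGCA), a nuclear receptor core (AGGTCA) or a RUNX match (TGTGGT), searched on both strands.
Dpt, chr1:164796580-164796712, plus strand: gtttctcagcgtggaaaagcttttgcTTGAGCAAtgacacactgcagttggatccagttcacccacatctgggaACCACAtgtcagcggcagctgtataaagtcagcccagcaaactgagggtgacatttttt
Omd, chr13:49582212-49582453, plus strand: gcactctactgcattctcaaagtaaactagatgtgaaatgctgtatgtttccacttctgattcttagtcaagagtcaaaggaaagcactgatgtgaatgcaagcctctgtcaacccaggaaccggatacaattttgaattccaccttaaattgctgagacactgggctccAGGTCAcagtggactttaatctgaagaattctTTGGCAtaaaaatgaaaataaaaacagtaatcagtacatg
Ogn, chr13:49607820-49608064, plus strand: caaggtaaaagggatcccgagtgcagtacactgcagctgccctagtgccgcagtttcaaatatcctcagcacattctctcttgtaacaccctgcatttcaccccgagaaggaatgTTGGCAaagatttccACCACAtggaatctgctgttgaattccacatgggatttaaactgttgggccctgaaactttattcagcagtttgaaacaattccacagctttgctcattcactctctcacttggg
Abca9, chr11:110168104-110168370, minus strand: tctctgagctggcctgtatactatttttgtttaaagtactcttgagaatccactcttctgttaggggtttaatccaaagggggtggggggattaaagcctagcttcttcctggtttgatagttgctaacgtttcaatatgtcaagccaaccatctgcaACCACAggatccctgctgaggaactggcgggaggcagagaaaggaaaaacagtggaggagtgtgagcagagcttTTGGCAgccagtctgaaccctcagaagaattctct
Tmem182, chr1:40805351-40805650, plus strand: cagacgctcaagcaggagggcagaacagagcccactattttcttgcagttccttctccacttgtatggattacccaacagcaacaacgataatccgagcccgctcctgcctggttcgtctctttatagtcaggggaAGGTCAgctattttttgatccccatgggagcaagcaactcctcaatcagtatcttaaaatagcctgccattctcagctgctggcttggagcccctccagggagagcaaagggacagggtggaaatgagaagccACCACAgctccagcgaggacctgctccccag
Gpsm1, chr2:26314361-26314660, plus strand: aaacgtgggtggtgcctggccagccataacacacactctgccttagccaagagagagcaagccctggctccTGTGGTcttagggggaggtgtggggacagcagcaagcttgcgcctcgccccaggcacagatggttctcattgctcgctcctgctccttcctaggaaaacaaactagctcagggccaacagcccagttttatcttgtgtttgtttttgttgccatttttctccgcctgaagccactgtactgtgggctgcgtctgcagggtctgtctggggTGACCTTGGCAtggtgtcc
Pafah2, chr4:134402894-134402961, plus strand: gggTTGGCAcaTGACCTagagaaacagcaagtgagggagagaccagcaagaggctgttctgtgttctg

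In the Gpsm1 window the last nuclear receptor and NFI matches share a base, and they are counted once each. Over the whole 300-base windows, the RUNX letters were in 9 of the 20 (45%), against 11.7% of the 11963 windows under peaks that met both floors and 16.9% of all 30771 windows. The NFI core was in 8 (40%), against 10.99% and 14.3%. The C/EBP letters were in 7 (35.0%), against 8.31% and 10.8%, and the nuclear receptor core was in 7 (35.0%), against 11.6% and 16.2%. In the other direction, the SP/KLF letters GGGCGG were in 2 of the 20 (10.0%), against 65.8% of the windows under peaks that met both floors and 35.4% of all windows. None of the 20 held the AP-1 letters TGANTCA or the CRE core TGACGT, against 5.61% and 12.0% of the windows under peaks that met both floors. Among 20 windows such shares stand for few windows, so nothing is read from their absence. More motifs were searched than are named here, and others differed in either direction. The TEAD letters GGAATG were in 5 of the 20 and the glucocorticoid receptor letters ACANNNTGT in 3, against 11.8% and 3.83% under peaks that met both floors. The NFY letters CCAAT were in 5 of the 20 and the ETS letters CCGGAAG in none, against 38.3% and 17.8%. These 20 windows also held less G and C, with a median of 50.5% and none above 60%, against medians of 61.7% under peaks that met both floors and 52.7% over all windows. The part of base composition in the motif shares was not tested. Windows under persistently opened peaks (77, median 48.7% G and C) held the AP-1 letters in 37.7% and the C/EBP letters in 27.3%. They held the RUNX letters in 25.97%, the nuclear receptor core in 25.97% and the NFI core in 19.5%. The SP/KLF letters were in 12.99% of them and the CRE core in 9.09%. Windows under transiently closed peaks (61, median 54.7%) held the C/EBP letters in 9.84% and the RUNX letters in 24.6%. The opened and transiently closed sets were chosen by other rules, with a control floor of 0.5 CPM for the opened set. Their motif shares are therefore not a matched comparison. A match of letters describes the window and is not a measured binding site. Some of the C/EBP, RUNX, NFI and nuclear receptor matches lay outside the part of the window covered by the closed peak. Some of the 20 windows belong to Gm or Riken models.

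Across the 919 peaks, the median level was 4.87 CPM with rosiglitazone. Over the forskolin course the median was 4.17 CPM in Control, 1.53 CPM at 4 hours, 1.81 CPM at 1 day and 1.76 CPM at 3 days. As a percent of a peak's own control mean, the median was 39.5 at 4 hours, 47.5 at 1 day and 46.5 at 3 days, and 103 with rosiglitazone. The peaks took 0.614% and 0.587% of all counts in the Rosi3D libraries. Over the forskolin course they took 0.547% and 0.542% in Control, 0.197% and 0.207% in FSK4h, 0.246% and 0.243% in FSK1D, and 0.253% and 0.224% in FSK3D. On this column-sum scale the median of log2 fold changes over Control, taken over every tested peak, was 0.10 at 4 hours, 0.19 at 1 day and 0.11 at 3 days, and 0.10 with rosiglitazone, so the closed peaks are low against a slightly raised background. By the median percent of control, the 2 libraries of each group sat close together. Single peaks varied more, from 58.6% to 143% of the control mean in S1. Among the forskolin groups the largest gap was at 3 days, where the median percent of control was 48.2 in S7 and 43.0 in S8.

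**Figure D1:**
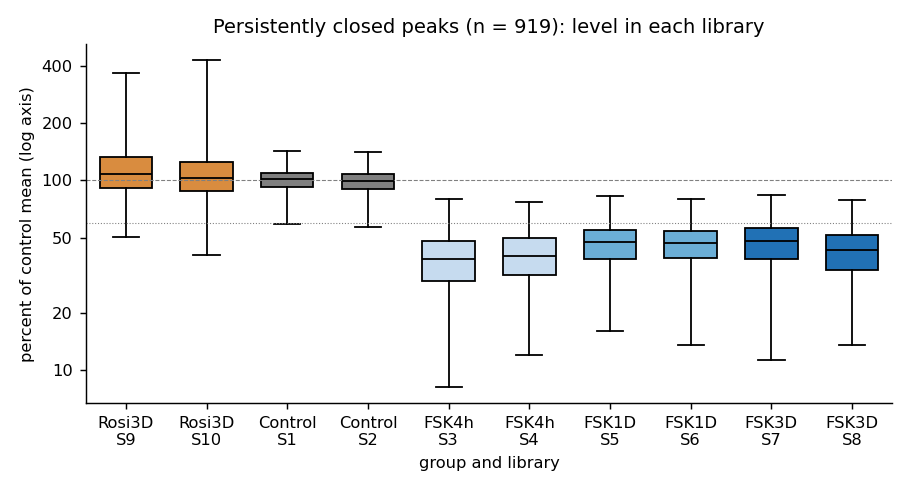
Level of the 919 persistently closed peaks in each library, as a percent of the peak's mean in Control (log axis, 0.25 CPM added). Boxes give the quartiles and median and whiskers the lowest and highest peak; the dashed line is 100% and the dotted line 60%. Medians are 108 and 103 in the Rosi3D libraries and between 38.5 and 48.2 in the 6 forskolin libraries.

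The depth of closing and its timing differed among the peaks. The lowest of the 3 forskolin means was at 4 hours in 530 peaks (57.7%), at 3 days in 238 (25.9%) and at 1 day in 151 (16.4%). Levels at or below 0.5 times control were seen in 739 peaks at 4 hours, 542 at 1 day and 588 at 3 days, and in 361 at all 3 times. Only 8 peaks were at or below 0.3 times control at all 3 times. At the other edge the rule cut through a continuous range: 137 members had their highest ratio between 0.58 and 0.60, and 177 peaks that met every other condition had it between 0.60 and 0.62. The last peak inside, at Methig1, had 59.98% of control at 3 days, and the first outside had 60.0018%. The lowest control mean inside was 2.01 CPM and the highest outside 1.995 CPM, with 417 peaks missing that floor alone. The lowest rosiglitazone value inside was 80.01% and the highest outside 79.98%, with 731 peaks missing that floor alone.

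With rosiglitazone the peaks were not uniform. On the column-sum scale the mean was above the control mean in 513 of 919 and more than 2 times it in 25. In the edgeR fit, which scales by TMM factors, 416 of 919 (45.3%) had a log2 fold change above 0, against 49.6% of all tested peaks. The majority thus turned with scaling. Both Rosi3D libraries lay above both Control libraries at 277 peaks and below both at 108. The rule's rosiglitazone floor removed peaks that fell far with rosiglitazone, so this imbalance is in part built in. On the column-sum scale the median with rosiglitazone was 103% of control for the members. It was 106% over all peaks and 107% over peaks that met both floors. No such counts are given for all peaks, so nothing is read from the 277 and the 108. The highest value, 399% of control, belonged to a peak with no protein-coding gene within 50 kb. Among named genes the highest were a peak near F3, the tissue factor gene, with 7.88 and 8.96 CPM in Rosi3D and a mean of 2.58 CPM in Control (306%), and peaks at Bri3 (266%) and Adam12 (264%), all chosen after their values were seen. In all, 897 of the 919 peaks had every forskolin library below both Rosi3D libraries. The rule's forskolin ceiling and rosiglitazone floor made this likely, so nothing is read from it, and the share over all peaks was not computed.

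The persistently closed peaks were mainly not at promoters. Start sites were at hand for 17492 of 21389 protein-coding genes outside chromosome 18, so shares at start sites are lower limits in every set. Of 893 peaks outside chromosome 18, 21 (2.35%, 95% Wilson interval 1.54 to 3.57) lay within 1 kb of a start site, against 10.1% of all peaks and 18.8% of peaks that met both floors. The share was 1.54% for 4665 peaks opened at all forskolin times and not by rosiglitazone, 3.72% for 1909 transiently closed peaks, and 1.32% for 303 peaks closed by both agents, all outside chromosome 18. These sets were chosen by other rules, so their shares are not a matched comparison. The opened set had a control floor of 0.5 CPM and a median of 1.65 CPM in Control. The conditions of the transiently closed set are not given here. By either annotated end of a gene, which needs no start site, 38 of the 919 (4.13%) lay within 1 kb, against 13.2% of all peaks and 22.7% of peaks that met both floors. The median distance to a gene end was 30475 bp, against 18444 bp over all peaks and 11313 bp over peaks that met both floors. No gene end lay within 100 kb of 20.02% of the closed peaks, against 15.1% and 10.6%. These positions were not used by the rule, but the level was: no peak of 50 CPM or more in Control was a member (0 of 3684), and the share of members among peaks that met both floors was 2.2% from 2 to 3 CPM and 0.345% from 20 to 50 CPM. The members were also weaker, with a median of 4.17 CPM in Control against 5.86 CPM over peaks that met both floors, and the part of level in the start-site share was not tested. The median width was 438 bp, against 358 bp over all peaks and 555 bp over peaks that met both floors.

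**Figure D2:**
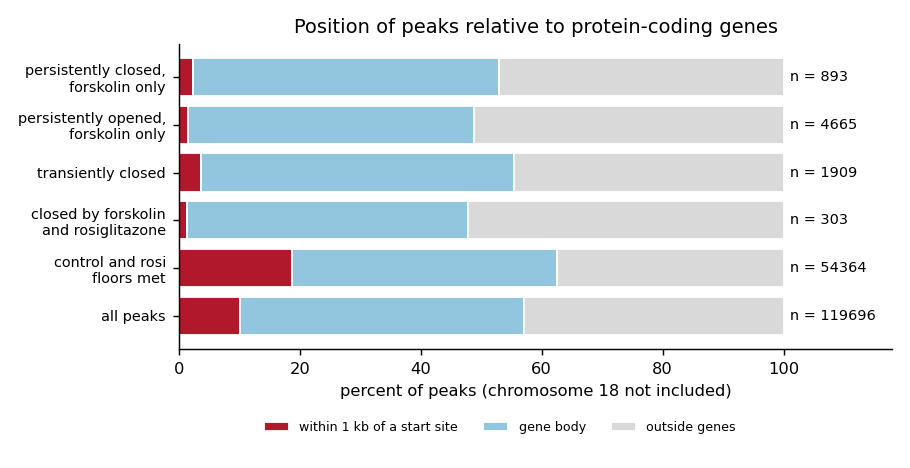
Share of peaks (percent) within 1 kb of a known start site of a protein-coding gene, in gene bodies and outside genes, for the persistently closed peaks, 3 other response sets, peaks that met the control and rosiglitazone floors, and all peaks. The start-site share is 2.35% for the persistently closed peaks, 18.8% for peaks that met both floors and 10.1% for all peaks. The response sets were chosen by different rules.

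The 21 start-site peaks had a median of 6.13 CPM in Control and the peaks outside genes 3.98 CPM, while their medians at 4 hours (41.1% and 39.3% of control) were close. At Dpt, which encodes a matrix protein of connective tissue, Rosi3D had 5.70 and 5.46 CPM. Over the forskolin course the Dpt peak had 6.92 and 6.36 CPM in Control, 2.92 and 2.66 in FSK4h, 3.65 and 3.43 in FSK1D, and 4.24 and 3.22 in FSK3D. The level was lowest at 4 hours, and the 2 libraries of 3 days lay on either side of those of 1 day. Omd and Ogn are neighbours in the small leucine-rich proteoglycan cluster on chromosome 13. The Ogn peak had 4.01 and 4.66 CPM in Rosi3D, and over the course 4.13 and 4.83 CPM in Control, 1.39 and 1.51 in FSK4h, 2.71 and 2.27 in FSK1D, and 1.72 and 1.69 in FSK3D. The Omd peak had 8.30 and 6.38 CPM in Rosi3D, and over the course 7.40 and 6.36 CPM in Control, 2.39 and 2.97 in FSK4h, 3.59 and 3.54 in FSK1D, and 4.54 and 3.15 in FSK3D. Both proteoglycan peaks were lowest at 4 hours, and Rosi3D overlapped Control at each. Gpsm1 differed with rosiglitazone, at 16.7 and 18.3 CPM in Rosi3D, both above the 8.07 and 11.1 CPM of Control, while its forskolin libraries ranged from 2.79 to 5.46 CPM. Epor, the erythropoietin receptor gene, chosen after its values were seen, likewise had 5.20 and 5.34 CPM in Rosi3D and 3.36 and 2.30 CPM in Control.

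The peaks were spread over the genome. Their share of the peaks that met both floors was highest on chromosome 13 (2.55%) and chromosome 3 (2.32%) and lowest on X (0.955%), and none of 24 on Y was a member. By position, 718 were assigned to 635 genes and 201 had no gene within 50 kb. An assigned gene is the nearest one and need not be the one a peak acts on. A single closed peak was found at 563 genes, 2 at 62 genes, 3 at 9 genes and 4 at Ccdc3, a secreted protein gene also expressed in fat. The genes with 3, and their numbers of peaks that met both floors, were Ccdc42 (6), Ebf1 (36), Fhl2 (7), Myh9 (18), Pard3 (20), Phactr1 (14), Rad51b (31), Txnip (6) and Wwox (23). Ccdc3 had 11 such peaks. Another member lay within 10 kb of 6.09% of the closed peaks, against 1.70% of other peaks that met both floors.

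At Ccdc3 all 4 peaks were lowest at 4 hours. The highest of them had 6.33 and 8.96 CPM in Rosi3D, and over the course 5.00 and 6.43 CPM in Control, 2.39 and 1.76 in FSK4h, 2.06 and 2.80 in FSK1D, and 2.70 and 2.53 in FSK3D. The other 3 had 27.6%, 24.7% and 36.0% of control at 4 hours, and 54.8%, 41.7% and 44.5% at 3 days. Ebf1, chosen after its values were seen, encodes an early B-cell factor that also acts in adipocyte differentiation, and its strongest closed peak had 22.5% of control at 4 hours, 35.0% at 1 day and 31.3% at 3 days. Its other 2 had 54.7% and 24.5% at 4 hours.

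The 10 peaks with the highest control level included ones at Txnip, Tbc1d1 and Inpp5k. Txnip encodes thioredoxin-interacting protein, which restrains glucose uptake. Its strongest closed peak, 2363 bp from a start site, had 31.5 and 36.7 CPM in Rosi3D, and over the course 28.3 and 32.4 CPM in Control, 11.7 and 13.2 in FSK4h, 12.6 and 16.9 in FSK1D, and 16.7 and 15.9 in FSK3D. The other 2 Txnip members were picked with their values in view. The second Txnip peak had 38.2 and 36.0 CPM in Rosi3D against 22.7 and 24.5 CPM in Control, and 31.6% of control at 4 hours. The third had 18.8 and 17.1 CPM in Rosi3D against 8.07 and 12.1 CPM in Control. At both of these the Rosi3D libraries lay above the Control libraries, whereas at the strongest peak they overlapped. Tbc1d1 encodes a Rab GTPase-activating protein of glucose transporter traffic. Its peak had 47.6 and 46.1 CPM in Rosi3D, and over the course 38.5 and 32.9 CPM in Control, 9.69 and 10.6 in FSK4h, 14.6 and 17.7 in FSK1D, and 21.2 and 18.3 in FSK3D. Inpp5k encodes an inositol phosphatase that opposes insulin signals. Its peak had 26.7 and 23.9 CPM in Rosi3D, and over the course 27.2 and 32.7 CPM in Control, 6.24 and 6.30 in FSK4h, 10.1 and 10.7 in FSK1D, and 16.1 and 13.5 in FSK3D. At Tbc1d1 and Inpp5k each later forskolin time lay above the one before, without overlap.

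Of the other 7, Pick1, a scaffold that binds protein kinase C, had 25.99% of control at 4 hours, 44.6% at 1 day and 56.2% at 3 days, with 27.3 and 24.97 CPM in Rosi3D against 29.5 and 28.6 CPM in Control. The peak nearest to Misp, a mitotic spindle gene, was the strongest of all, at 47.0 and 46.9 CPM in Rosi3D against 44.5 and 48.3 CPM in Control. Its 3 forskolin means were between 47.0% and 51.6% of control, so it was nearly level over the course. Ntf3 (neurotrophin-3), Slc22a14 (a solute carrier) and Slit3 (a Robo ligand) had 35.0%, 36.2% and 46.2% of control at 4 hours. Clec2d, a C-type lectin, had 43.9% and Nmt1, an N-myristoyltransferase, 47.1%.

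The peaks with the lowest share of control, among those of at least 5 CPM in Control, were led by Aadat, which encodes an aminotransferase of kynurenine breakdown. The Aadat peak had 5.13 and 4.11 CPM in Rosi3D, and over the course 5.57 and 5.75 CPM in Control, 0.797 and 1.09 in FSK4h, 1.18 and 0.898 in FSK1D, and 0.614 and 0.921 in FSK3D. Its mean over the forskolin times was 19.7% of control. Tnfaip3 encodes A20, an enzyme that restrains NF-κB signals. The peak nearest to it had 11.8 and 14.2 CPM in Rosi3D, and over the course 7.30 and 9.80 CPM in Control, 1.99 and 3.03 in FSK4h, 2.12 and 3.01 in FSK1D, and 1.97 and 1.38 in FSK3D. Prokr1 encodes a prokineticin receptor. Its peak had 21.4 and 18.5 CPM in Rosi3D, and over the course 6.82 and 9.35 CPM in Control, 1.33 and 1.82 in FSK4h, 2.47 and 3.22 in FSK1D, and 2.03 and 1.69 in FSK3D. At Tnfaip3 and Prokr1 both Rosi3D libraries lay above both Control libraries. Others by this rule were Plce1 (a phospholipase C), Thbs2 (a matricellular thrombospondin), Ifit2, Rab3c (a vesicle GTPase), Hip1r (an endocytic adaptor) and Rbm20 (a splicing factor), at 24.2% to 29.0% of control over the forskolin times.

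Few peaks at the genes of 11 functional lists were members. Read against 1.65% of all peaks that met both floors, 4 of 117 such peaks at insulin and glucose genes were members (3.42%), 4 of 163 at actin, SRF and YAP genes (2.45%), and 4 of 227 at TGF-β, matrix and progenitor genes (1.76%). There were 2 of 128 at adrenergic and cAMP genes (1.56%), 1 of 143 at adipocyte identity genes (0.699%), 1 of 116 at thermogenic genes (0.862%) and 1 of 93 at clock genes (1.08%). None of 89 at lipogenesis genes, of 94 at glucocorticoid targets or of 9 at macrophage genes was a member. The interferon list had 3 of 38 (7.89%), which lay at Ifit2 and Bst2. Of these, 2 were neighbouring Ifit2 peaks, 885 and 1835 bp from a start site. The Bst2 peak had a mean of 2.20 CPM in Control, near the floor. No test was made of these small counts.

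Adrb3 encodes the β3-adrenergic receptor of adipocytes. The closed peak lay 1054 bp outside the gene (GRCm38, chr8:27231899-27232132) and had 6.40 and 4.60 CPM in Rosi3D, and over the course 3.46 and 3.14 CPM in Control, 0.996 and 1.15 in FSK4h, 0.882 and 1.00 in FSK1D, and 1.60 and 1.30 in FSK3D. That no libraries of Control and forskolin overlapped was required by the rule, and both Rosi3D libraries lay above Control. Pde4d encodes a phosphodiesterase that breaks cAMP down. Its 1 member, in the gene body, had 4.71 and 4.97 CPM in Rosi3D, and over the course 2.50 and 2.30 CPM in Control, 0.465 and 1.09 in FSK4h, 0.823 and 0.845 in FSK1D, and 0.553 and 0.691 in FSK3D. This peak ran against the rest of its gene, as the sums over the other peaks below show.

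Of the insulin genes, Irs1 encodes the insulin receptor substrate. The peak lay 32766 bp from the gene and had 6.54 and 5.71 CPM in Rosi3D, and over the course 7.30 and 6.59 CPM in Control, 4.51 and 2.00 in FSK4h, 3.23 and 2.38 in FSK1D, and 3.87 and 2.15 in FSK3D. The 2 libraries at 4 hours were far apart. Pik3r1, the regulatory subunit of PI 3-kinase, had 5.70 and 7.67 CPM in Rosi3D, and over the course 5.76 and 8.27 CPM in Control, 3.05 and 2.78 in FSK4h, 2.35 and 1.74 in FSK1D, and 2.27 and 1.92 in FSK3D.

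Of the other lists, Cidec encodes a lipid droplet protein. Its peak had 4.99 and 4.36 CPM in Rosi3D, and over the course 3.94 and 5.13 CPM in Control, 1.99 and 2.42 in FSK4h, 2.06 and 1.95 in FSK1D, and 2.58 and 1.92 in FSK3D. Ppara, a receptor that drives fatty acid oxidation genes, had a peak 47035 bp away with 8.02 and 7.92 CPM in Rosi3D and 7.59 and 11.3 CPM in Control, and with 27.0% of control at 4 hours and 58.8% at 3 days. Arntl encodes the clock factor BMAL1. Its Control libraries, at 1.44 and 3.83 CPM, differed more from each other than S1 differed from the highest forskolin library, at 1.21 CPM. The Ifit2 peak at its start site had 10.3 and 9.20 CPM in Rosi3D, and over the course 12.2 and 11.03 CPM in Control, 3.25 and 1.94 in FSK4h, 4.06 and 3.06 in FSK1D, and 3.56 and 2.07 in FSK3D. Ifit2 is induced by interferon and Bst2 encodes tetherin, another interferon target, whose peak had 22.0% of control at 4 hours and 29.4% at 3 days. Myh9, non-muscle myosin, had 3 members with 127%, 127% and 197% of control in Rosi3D. The third Myh9 member, like Smad3, was chosen after its values were seen. Tpm1 (tropomyosin), Smad3 and Smad7 (an effector and an inhibitor of TGF-β signals), Zfp423 (a preadipocyte factor) and Col6a1 (a collagen VI chain) had 31.4%, 25.2%, 39.9%, 41.5% and 50.4% of control at 4 hours.

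**Figure D3:**
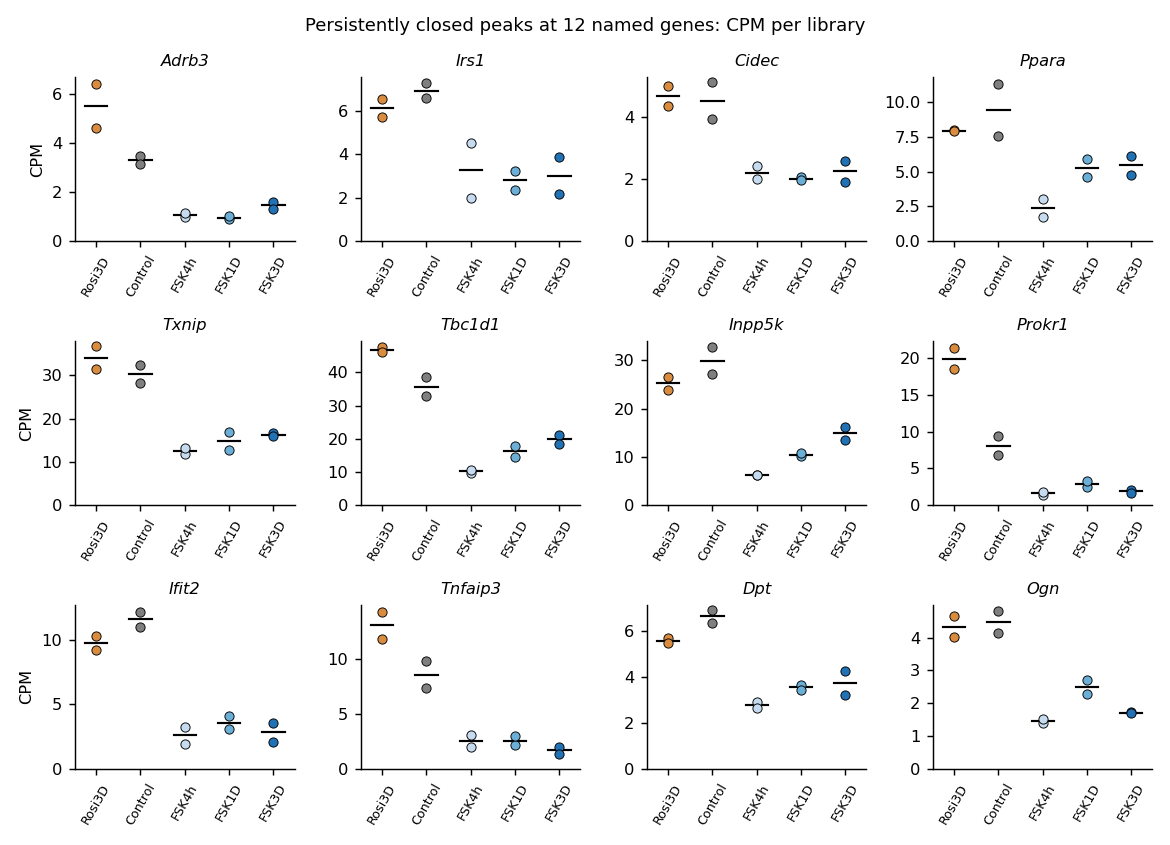
Level in CPM of 12 named persistently closed peaks in each library (points) with the group mean (lines); each panel starts at 0. In every panel the 6 forskolin points lie below the Control points, as the rule required, while the Rosi3D points lie above Control at Adrb3, Prokr1, Tbc1d1 and Tnfaip3.

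The rule did not compare the forskolin times with each other, but it used the same 6 libraries and capped all 3 times at 0.6 times control, which limits how far a member could recover. The differences between times are therefore a description of the chosen peaks, and nothing is read from the members' shares of calls beside those of all peaks. Calls were made with edgeR's quasi-likelihood test and Benjamini-Hochberg adjustment over 118954 peaks, which included all 919. In FSK3D against FSK4h, 71 were called higher (7.73%, against 4.38% of all peaks) and 7 lower (0.762%, against 6.75%). In FSK1D against FSK4h, 45 were called higher (4.90%, against 2.58%) and 3 lower (0.326%, against 2.99%). In FSK3D against FSK1D none was called higher (against 0.109%) and 1 lower (against 0.0773%), with 51 at an unadjusted p under 0.05 in either direction, and DESeq2 called none. The median log2 fold change of the members was 0.21 for 3 days over 4 hours, 0.20 for 1 day over 4 hours and 0.01 for 3 days over 1 day, against −0.01, −0.01 and −0.02 over all peaks. Most members had no called difference between any 2 forskolin times, and a p that misses the threshold does not show that they stayed level. The numbers of calls rest on single libraries, among the members as over all peaks, which lost calls in the same runs. For 3 days over 4 hours the calls in either direction were 31 without S3, 50 without S4 and 51 without S7, against 78 with all libraries. For 1 day over 4 hours they were 13 without S3, 30 without S4, 15 without S5 and 12 without S6, against 48. DESeq2 called 36 and 18 members. Over all peaks it called 6414 and 2522, against 13238 and 6621 by edgeR.

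**Figure D4:**
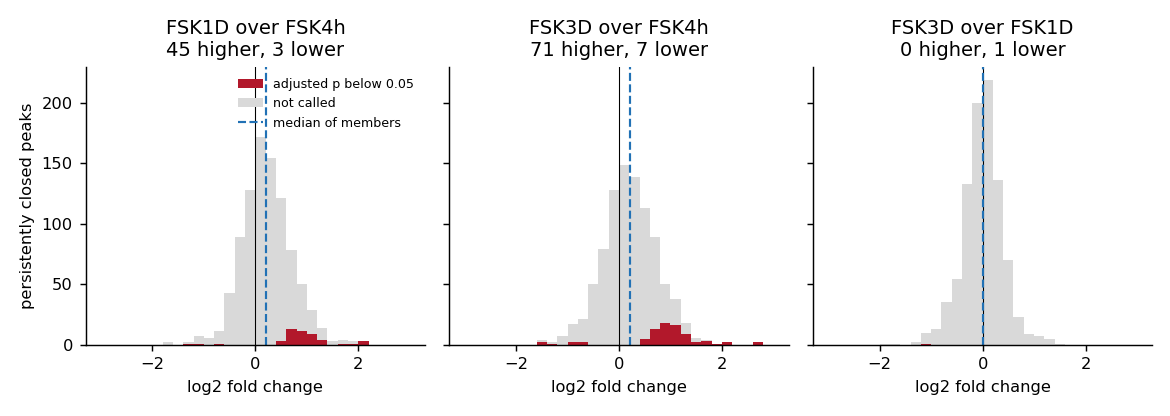
Number of persistently closed peaks (vertical axis) by log2 fold change between forskolin times, with called peaks in red and the median dashed. The median is 0.20 for 1 day over 4 hours and 0.21 for 3 days over 4 hours, with 45 and 71 peaks called higher, and 0.01 for 3 days over 1 day, with 1 call.

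The largest called difference from 4 hours was at Arnt2, a partner factor of bHLH-PAS proteins, in the gene body. This peak had 2.21 and 1.38 CPM at 3 days against 0.332 and 0.182 CPM at 4 hours (log2 fold change 2.79, SE 0.55). Behind the 4-hour values stand 5 and 3 counts. The call held in every alternative run. At 3 days the level was still 57.2% of control.

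Lmcd1, a LIM domain gene, had 3.76 and 4.81 CPM at 1 day against 0.465 and 1.82 CPM at 4 hours (1.82, SE 0.32), and Grtp1, a TBC domain gene, 4.35 and 5.49 CPM against 1.13 and 2.48 CPM (1.38, SE 0.28). In both, the lower library at 4 hours was S3, and without it neither was called. Galnt10, an O-glycosylation enzyme gene, had 2.52 and 2.07 CPM at 3 days against 0.398 and 0.908 CPM at 4 hours (1.78, SE 0.42), a call lost without S3. Pard3b, a polarity gene, was called higher at both later times, with 1.41 and 1.38 CPM at 3 days and 1.47 and 1.58 CPM at 1 day against 0.199 and 0.484 CPM at 4 hours. Tcf7l2, an effector of Wnt signals, was so too, by 2.05 on the log2 scale at 3 days and 2.07 at 1 day, from 4 and 2 counts in the 4-hour libraries. Hsd11b2, which inactivates glucocorticoids, was called higher at 3 days (1.79, SE 0.59) and Ak5, an adenylate kinase, at 1 day (1.73, SE 0.52). These calls rest on single libraries. The Pard3b call was lost without S3 or S6, the Hsd11b2 call without S3 or S8, the Ak5 call without S3, S4 or S5, and the Tcf7l2 call without any 1 library of the times compared.

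A few members were lower still at the later times. Tmem182, whose start-site sequence is shown above, had 3.13 and 2.84 CPM at 3 days against 5.98 and 5.21 CPM at 4 hours, so the groups did not overlap (−0.90, SE 0.23). The call was lost without S3. Cdh26, a cadherin gene, had 2.95 and 2.15 CPM at 3 days against 6.06 and 5.65 CPM at 1 day and 5.78 and 3.63 CPM at 4 hours. It was the 1 member called lower at 3 days than at 1 day and is named there for that reason (−1.13, SE 0.24). Without S5, S6 or S8 no member was called between those times, and without S7 4 were. Its call against 4 hours was lost without S3 or S8. A peak near Cyp39a1, an oxysterol hydroxylase gene, had 0.491 and 0.614 CPM at 3 days against 1.86 and 1.21 CPM at 4 hours (−1.47, SE 0.48). A Myh9 peak was lower at 1 day, with 3.00 and 4.01 CPM against 4.98 and 5.87 CPM at 4 hours (−0.68, SE 0.22). The Cyp39a1 call was lost without S3, S7 or S8. The Myh9 call was lost without any 1 library of its times.

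The same fit gives the members' counts in the contrasts the rule used, from which nothing is read. Lower were 905 at 4 hours (12.9% of all peaks were), 880 at 1 day (9.84%) and 813 at 3 days (5.34%), and 787 in FSK3D against Rosi3D (8.82%). In Rosi3D over Control, 33 were called higher (3.59%, against 3.22%) and none lower (against 3.35%), with 117 at an unadjusted p under 0.05 in either direction.

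Peaks around the members were called lower more often than the average peak. Within 10 kb of a member lay 1893 tested peaks that were no members. Of these, 20.6% were called lower at 4 hours, 14.5% at 1 day and 10.5% at 3 days, against 12.9%, 9.84% and 5.34% of all tested peaks. Fewer were called higher, at 14.1%, 8.98% and 5.23%, against 18.5%, 12.9% and 8.49%. With rosiglitazone, 4.07% were lower and 3.06% higher, against 3.35% and 3.22%. The share lower at 4 hours was 23.8% within 2 kb and 11.8% beyond 100 kb. These peaks come from the contrasts and libraries of the rule, and near peaks may be shoulders of 1 open region, so the shares are a description without a test. Single libraries moved these shares and those of all peaks. Both fell in every such run, except that without S8 the share of all peaks lower at 3 days rose. At 4 hours the median log2 fold change near members was −0.15 without S2 and −0.18 without S3, against 0.02 and −0.02 over all peaks. Under both other scalings and without each library in turn the share of lower calls near members was above that of all peaks at each forskolin time.

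**Figure D5:**
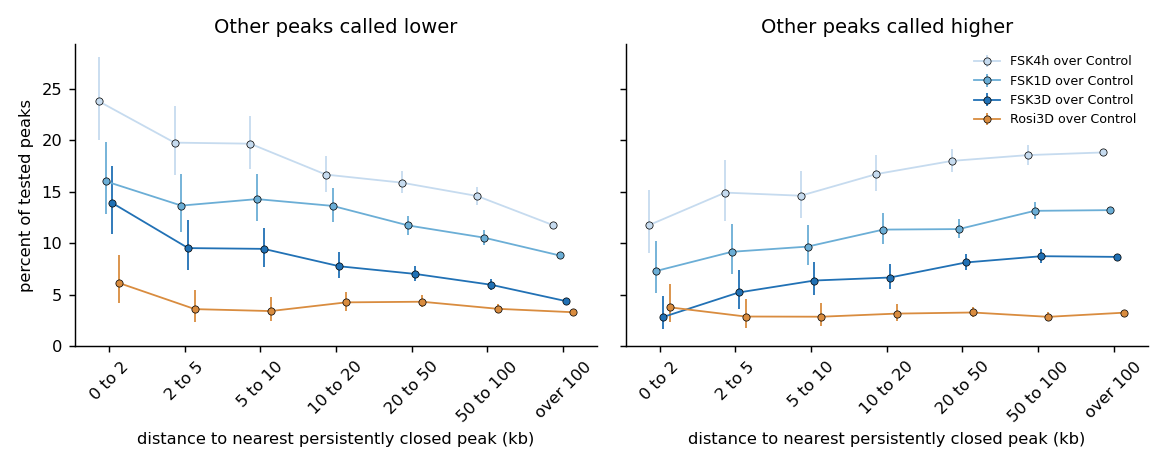
Percent of other tested peaks called lower (left) and higher (right) against Control, by distance to the nearest persistently closed peak in kb, for FSK4h, FSK1D, FSK3D and Rosi3D; bars are 95% Wilson intervals for counting error. At 4 hours the share lower is 23.8% within 2 kb and 11.8% beyond 100 kb.

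Summed over a gene's peaks that were no members, accessibility was tested for 624 of the 635 genes. These counts share their contrasts and libraries with the rule and are again a description. At 4 hours 107 of the 624 were called higher (17.1%) and 164 lower (26.3%), against 12.5% and 22.4% of all 16996 genes. At 1 day 66 (10.6%) were higher and 185 (29.6%) lower, against 9.67% and 27.3%. At 3 days 28 (4.49%) were higher and 104 (16.7%) lower, against 5.34% and 9.43%. With rosiglitazone 24 (3.85%) were higher and 42 (6.73%) lower, against 2.45% and 5.09%. Which direction held more calls depends on scaling: with column sums alone the counts were 158 higher and 103 lower at 4 hours, and with loess offsets 165 and 112. The same turn was seen over all genes, with 3053 higher and 2191 lower by column sums and 2996 and 2172 by loess offsets. The share lower at 4 hours was 16.5% against 12.9% of all genes with column sums, and 17.95% against 12.8% with loess offsets. Calls in either direction also rest on single libraries, and those over all genes moved the same way in these runs. At 4 hours they numbered 152 without S2 and 154 without S3, against 271 with all libraries, and at 1 day 131 without S2 and 127 without S5, against 251. At 3 days there were 36 without S2, 85 without S1 and 217 without S8, against 132, and with rosiglitazone 20 without S9, 21 without S2, 27 without S10 and 35 without S1, against 66. Apart from its member, Adrb3 had log2 fold changes of −0.96 (SE 0.15) at 4 hours, −0.92 (SE 0.14) at 1 day and −1.20 (SE 0.15) at 3 days, and 0.05 (SE 0.14) with rosiglitazone. Apart from its 3 members, Txnip had −0.71, −0.90 and −0.60 with forskolin and −0.000235 with rosiglitazone (SE 0.08 each). Apart from its 2 members, Ifit2 had −0.81, −0.67 and −0.66 with forskolin (SE 0.14 each) and −0.03 with rosiglitazone (SE 0.13). At these 3 genes the other peaks thus lay on the same side as the members. Pde4d went the other way, with 0.74 at 4 hours, 0.45 at 1 day and 0.38 at 3 days (SE 0.05 each), and 0.24 with rosiglitazone. At Cidec the other peaks had 0.20 (SE 0.11) at 4 hours, −0.13 (SE 0.11) at 1 day and 0.06 (SE 0.11) at 3 days, and 0.53 (SE 0.11) with rosiglitazone. At Dpt they were between −0.10 and 0.04 with forskolin (SE 0.09 each), so the closed start-site peak was not matched by the rest of that gene.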

How the data were processed

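The deposited table holds raw whole-number counts per peak for 10 libraries, which the authors made from paired reads. Tools named by the submitters' processing notes, without versions, are MACS2 and featureCounts, with Bowtie2, fastp, Picard, SAMtools and deepTools. The same notes give mm10 and GRCm38 as builds. Pooling before peak calling, the treatment of duplicates and any shift for the transposase are not given in the sources used here. Per the column names each column has a group, but its number is not tied to a labelled replicate. All columns were used.

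The members and the gene lists were chosen with earlier results of these data known. Levels are CPM from column sums. Tests used edgeR 4.0.16 in R 4.3.3 (quasi-likelihood F test, robust, TMM factors, default filter on low counts, all 10 libraries in 1 fit), with Benjamini-Hochberg adjustment over 118954 peaks or 16996 genes and calls at an adjusted p below 0.05. The filter left out none of the 919 members. Standard errors (SE) came from the F statistic, and TMM and column sums differ, so fitted fold changes need not equal CPM ratios. DESeq2 1.42.0, column sums, loess offsets and leaving out libraries were alternatives. The edgeR fit of peaks was tested on simulated counts, in FSK3D against FSK4h only.

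Peaks named are the 10 with the highest control mean, the 10 with the lowest forskolin share of control (control mean at least 5 CPM), up to 5 called in each direction between later forskolin times and 4 hours, all at genes with 4 or more members, and up to 3 per gene list. Others are said to be chosen after their values were seen; names of Gm, Riken and olfactory receptor models were not used. Some peaks chosen this way are not reported here. Gene bounds and promoter windows came from RefSeq GRCm38.p6. A peak went to the gene whose start site lay within 1 kb, then to the gene body around it, then to the closest gene end no more than 50 kb away. Motifs were searched in promoter windows, since no genome sequence was used, so shares over whole peaks were not computed. Intervals cover counting error only. Python 3.11.15 with pandas 2.3.3 and matplotlib 3.10.9 was used for tables and figures.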

Additional observations from a re-analysis of the deposited data

How the results depend on the processing

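The rule found 1268 peaks with TMM-scaled CPM and 1729 with loess trended offsets, 797 and 752 of them among the 919, so scaling moves which peaks are members. Other settings gave 1087 (0 added before ratios), 548 (1 added), 361 (forskolin ceiling 0.5x), 1941 (0.7x), 1215 (control floor 1 CPM), 373 (5 CPM), 708 (rosiglitazone floor 0.9x) and 679 (a rosiglitazone ceiling added as well), and 852 to 1130 without each library in turn. Of the 919, 611 were kept without S1 and 675 without S2.

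DESeq2 called 18 members for 1 day over 4 hours, 36 for 3 days over 4 hours and 0 for 3 days over 1 day, against 48, 78 and 1; with only the 2 groups compared, 0 were called for 3 days over 1 day. Leave-one-out ranges were 12 to 30, 31 to 57 and 0 to 4. Of 134 alternatives to the named calls between times, 45 lost the call and none turned the direction. The start-site share was 3.81% within 2000 bp. The share of neighbours called lower was 17.1% (4 hours), 12.7% (1 day) and 7.96% (3 days) within 50 kb, 16.5%, 9.03% and 7.40% with column sums alone, and 12.2% to 15.8%, 7.00% to 10.6% and 4.97% to 9.59% without each library (the last 2 alternatives were chosen after seeing the data). Calls of genes outside the member peaks ran, without each library, from 152 to 220 at 4 hours, 127 to 198 at 1 day, 36 to 217 at 3 days and 20 to 35 with rosiglitazone, for which assignment within 10 kb gave 38; loess offsets turned the majority from lower to higher, as did column sums (160 higher and 81 lower at 1 day, 72 and 48 at 3 days, 71 and 17 with rosiglitazone). Over all genes both scalings turned the majority in the same way. The cause of these changes was not tested, and leaving out a library also leaves fewer samples.

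No paired analysis was possible because the columns are not tied to the labels' replicate numbers. Motif shares over whole peaks were not run, as no genome sequence was used. Many members rest on low counts in 2 libraries a group; the part of depth in the calls between forskolin times was not tested.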
